A study of Mus musculus and Mus musculus
Oryx dammah with 30 samples.

Results

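Replication-dependent histone genes encode the bulk of the histones that package newly made DNA. The genes were taken as every protein-coding gene of the expression tables whose name begins with Hist1h, Hist2h, Hist3h or Hist4h. The rule found 67 of the 53023 genes listed in the four-cell tables, 6 of the linker histone class H1, 18 of class H2a, 18 of H2b, 12 of H3 and 13 of H4. The table of the two-cell experiment gives 59 of the 67 under newer names, and all were traced there by their gene identifiers.

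The core histones H2A, H2B, H3 and H4 form the nucleosome, and H1 binds the DNA that links nucleosomes. Their genes lie in clusters, mostly lack introns and are transcribed by RNA polymerase II in S phase, under the co-activator NPAT. The mRNA is normally cut just after a conserved stem-loop and carries no poly(A) tail. The stem-loop is bound by SLBP (stem-loop binding protein), which acts in processing, translation and stability, and the mRNA is degraded when DNA synthesis ends. In mouse oocytes and early embryos, part of the histone supply comes from maternal mRNA and protein.

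The study transferred nuclei of C2C12 cells, a mouse myoblast line of the C3H strain, into mouse embryos with C57BL/6 and DBA/2 genomes, and called the product NT embryos. All groups were held in 0.1 μg/ml demecolcine, which arrests cells at G2/M, and were cultured for 24 h after transfer. RNA-seq libraries were made from embryo pools with an oligo-dT primed kit without strand information, so transcripts without a poly(A) tail are largely missed and reads of overlapping antisense genes cannot be told apart. Gene levels are FPKM (fragments per kilobase of exon per 1000000 counted fragments), and a level is therefore a share of each library, never an amount per embryo.

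In the C2C12 experiment, four-cell NT embryos received 2.5 μg/ml α-amanitin (libraries S16, S18 and S8) or none (S15, S17 and S7), in pools of 3 embryos. Transfer was at 46 h post insemination in both groups. α-Amanitin blocks RNA polymerase II, and the comparison addresses which transcripts were made after transfer. In the two-cell experiment, early embryos (transfer from 21 h post insemination) and late embryos (from 30 h) were each cultured with or without the drug, in pools of 5. Its 6 treated columns carry Am in their names, and the 6 other columns were taken as untreated. Column names do not tell early from late, but fall into a set without the prefix R (Am1 to Am3, NT1 to NT3) and a set with it (RAm1 to RAm3, r1, r2 and R3). The replication experiment compared four-cell groups D (D1, D4 and D5) and DR (DR1 to DR3), in pools of 4, from transfers made before or after DNA replication. The labels do not say which letters stand for which, so no direction with respect to replication is given. The study's figure legends describe the libraries of a group as biologically independent, and p-values measure the spread between these libraries.

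Depth limits what can be seen of these short, weakly captured transcripts, with a median annotated length of 539 bases. In the C2C12 experiment 1136771 to 3101002 reads were counted on genes per library, against 9424402 to 37309613 estimated for two-cell libraries and 5207914 to 38363106 for the replication experiment. Synthetic spike-in RNA was found in the latter tables, where changes were tested after scaling to it. It took 5.82% to 18.5% of the summed FPKM of two-cell libraries and 0.0458% to 1.84% in the replication experiment. Summed FPKM of 8 oocyte and early embryo markers was at least 1553 in every two-cell and C2C12 library. Dppa3 gave at least 93.5% of the sum in the two-cell libraries other than RAm1 to RAm3, where it gave 28.2% to 44.4%. Markers of myoblasts, 8 genes, summed to 17.5 to 87.6 FPKM in untreated and 79.8 to 289.5 FPKM in treated C2C12 libraries, most of it from the smooth muscle actin gene Acta2, and Pax7 was at 0 in every library of the 3 tables. Their part in the histone result was not tested.

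Of the 67 genes, 54 lie on chromosome 13 between positions 21715763 and 23934851 of GRCm38 (mm10), 10 on chromosome 3 between 96219865 and 96270132, 2 on chromosome 11 and 1 on chromosome 6. The stem-loop at which the mRNA is normally cut is shown for genes that carry much of the signal, because it decides whether a transcript should have a poly(A) tail. It was searched in the annotated transcripts (GENCODE vM21) as GGNNNTTNNNAGNNCC with 6 pairing stem bases. Positions are on GRCm38, and capitals mark the stem-loop.
Hist1h2ao, chr13:21810893-21810918, plus strand: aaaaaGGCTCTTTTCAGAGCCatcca
Hist1h2ap, chr13:21833026-21833049, minus strand: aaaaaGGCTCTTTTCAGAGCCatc
Hist1h2ae, chr13:23570663-23570688, minus strand: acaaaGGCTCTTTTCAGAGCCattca
Hist1h2bg, chr13:23571838-23571863, plus strand: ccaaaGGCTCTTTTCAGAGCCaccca
Hist1h3g, chr13:23535884-23535909, plus strand: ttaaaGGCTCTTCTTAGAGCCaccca
Hist1h4i, chr13:22040961-22040986, minus strand: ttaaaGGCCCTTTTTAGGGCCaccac
Hist1h4d, chr13:23581945-23581970, plus strand: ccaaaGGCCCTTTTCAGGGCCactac
Hist1h4c, chr13:23698084-23698109, minus strand: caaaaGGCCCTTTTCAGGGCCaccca
These letters were found in 46 of the 67 genes and in 26 of 21834 other protein-coding genes (0.119%). Some annotated transcripts without a match, of 381 bases in Hist1h2bl and 312 in Hist1h4k, may end with the coding sequence. A missing match there does not show that the gene lacks the stem-loop. The stems of Hist1h4d, Hist1h4c and Hist1h4i hold GGCCC where those of the H2a, H2b and H3 genes hold GGCTC. The annotated transcript ended within 60 bases of the stem-loop in 22 genes, 31 bases after it in Hist1h2ao and 3 bases after it in Hist1h2ap. In the other 24 it ran on, by 770 bases in Hist1h4d, 454 in Hist1h4c, 330 in Hist1h4i, 155 in Hist1h2bg and 151 in Hist1h2ae.

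A longer annotated transcript can end in a poly(A) signal. The last 30 bases are shown for 3 genes with one, with AATAAA or ATTAAA in capitals.
Hist1h4i, chr13:22040636-22040665, minus strand: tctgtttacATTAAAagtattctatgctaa
Hist1h2ae, chr13:23570517-23570546, minus strand: ccAATAAAtgggtcaatttttttcagattc
Hist1h1c, chr13:23740338-23740367, plus strand: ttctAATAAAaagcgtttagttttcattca
One of these hexamers stood in the last 50 bases of 15 of the 67 genes, against 50.2% of 58725 other protein-coding transcripts. Transcripts annotated without their end limit this count in the same way. Hist1h2bc, the H2b gene with the highest mean in all 3 tables, had no stem-loop match in the transcript used, which is spliced. Its exon 1 is chr13:23684199-23684621 and its exon 2 is chr13:23692176-23692908, which gives 423 and 733 bases. Only 4 of the 67 transcripts had more than 1 exon.

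Sequence is also shared between genes. In 33 of the 67 genes, more than 50% of all 50-base windows of the transcript also occurred in another gene. The median share was 73.0% in H2a, 62.0% in H3, 51.7% in H2b, 39.5% in H4 and 1.13% in H1. Hist1h2ao shared 93.5% of its windows with Hist1h2ap, so their values cannot be read as 2 measurements. The share was 10.2% for Hist1h4d, 30.1% for Hist1h2bc, 2.35% for Hist1h2aa and 0 for Hist1h1a and Hist1h1b. Genes with more than 50% shared carried 19.5% of the summed histone FPKM in the C2C12 table, 75.1% in the two-cell table and 70.5% in the replication table. How reads that match several genes were counted is not given in the sources used here.

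In C2C12 four-cell NT embryos, few histone reads were recovered, and 3 of the 13 histone genes that could be tested were called higher without α-amanitin. Over all 67 genes, 388, 156 and 232 reads were recovered in the untreated libraries S15, S17 and S7, against 32, 31 and 51 in the treated S16, S18 and S8. The untreated libraries held a read of 25, 31 and 34 of the genes and the treated ones of 13, 15 and 13. No read was found in any library for 18 of the 67 genes, and 13 passed the filter, which asked for 3 or more libraries at 1 FPKM or above.

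Hist1h2bc, which encodes an H2B, had the highest level of all members in each untreated library. Its level was 75.9, 24.1 and 28.4 FPKM without α-amanitin, from 200, 51 and 71 reads. It was 0.279, 2.28 and 6.53 FPKM with α-amanitin, from 1, 3 and 12 reads. The groups did not overlap, and Hist1h2bc rose by 3.60 ± 0.68 (SE) on the log2(FPKM + 1) scale, with an adjusted p of 0.0154 by limma.

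The linker histone gene Hist1h1b was read only in the untreated embryos, at 5.91, 7.36 and 4.98 FPKM from 10, 10 and 8 reads. With α-amanitin it had no read in any of the 3 libraries, and if 3 reads are allowed for each of them the untreated level was at least 2.47-fold higher. Its adjusted p was 0.00508 by limma. Hist1h4i, an H4 gene, was at 7.24, 5.26 and 4.45 FPKM without the drug against 0.444, 0 and 1.73 with it, a log2 difference of 2.05 ± 0.48 (adjusted p = 0.0286 by limma). These 3 genes were the only members called higher, where a call needed an adjusted p under 0.05 and at least 4-fold, and none was called lower. For Hist1h1b the 4-fold part of the call rests on the pseudocount of 1, since its bound is 2.47-fold. The 3 calls make up 23.1% of the 13 genes tested, against 6.2% of all 9884 genes tested. The median log2 difference was 1.70 over these 13 genes and 0.37 over all genes. Of the 13 genes just Hist1h4d reached 1 FPKM in all 3 treated libraries, so the other 12, with all 3 called, needed untreated libraries to pass the filter, and nothing is read from the share or the median.

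Hist1h4d, the most abundant H4 gene, was at 21.2, 15.4 and 24.4 FPKM without α-amanitin and at 1.98, 7.73 and 9.40 with it. The groups did not overlap, but the log2 difference of 1.70 ± 0.51 had an adjusted p of 0.0631 by limma. The H2a gene Hist1h2ae was at 6.23, 6.21 and 10.5 FPKM against 0, 0 and 4.47 (2.26 ± 0.68, adjusted p = 0.0636 by limma). It likewise lay above the treated libraries in all 3 untreated ones.

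Hist1h2ab and Hist1h2ba passed the adjusted p alone, as 0.0146 and 0.0273 by limma, and had no read in any treated library. Hist1h2ab, an H2a gene, had 2, 2 and 3 reads without the drug (1.86, 2.31 and 2.93 FPKM). Hist1h2ba, a testis-enriched H2B gene, had 5, 2 and 1 reads (5.71, 2.85 and 1.20 FPKM). These counts are at or near the limit that a count of 0 allows, so no fold is given. By the adjusted p alone 5 of 13 genes were higher, against 11.1% of all genes tested, and as all 5 needed untreated libraries to pass the filter, nothing is read from that share.

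Untreated levels lay wholly above treated ones in 7 of the 13 genes tested, against 27.6% of all genes. All of the 7 but Hist1h4d needed untreated libraries to pass the filter, so this count is a description. In the remaining genes the groups overlapped. The largest opposite difference was −0.87 ± 0.58 for the H3 gene Hist1h3i (adjusted p = 0.354 by limma). Leaving out S15, S17 or S7 left 0 calls in each case, with 8 to 9 histone genes tested.

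**Figure D1:**
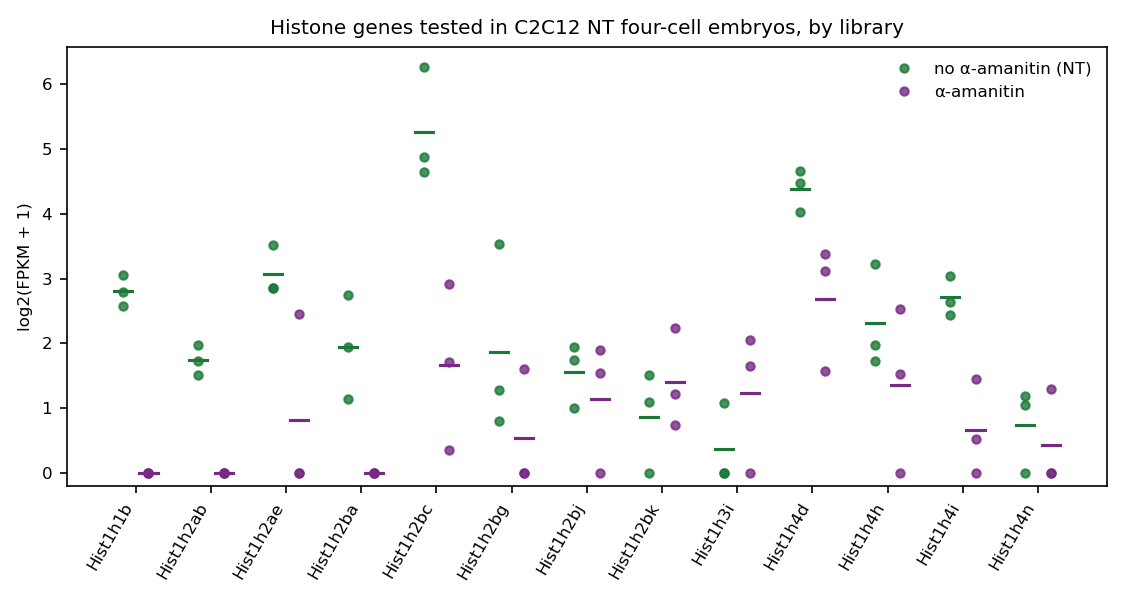
Each point is 1 library of C2C12 four-cell NT embryos, with log2(FPKM + 1) of the 13 histone genes tested on the vertical axis, untreated in green and α-amanitin in purple, and bars at the group means. The untreated points of Hist1h2bc, Hist1h1b, Hist1h4i, Hist1h4d, Hist1h2ae, Hist1h2ab and Hist1h2ba all lie above the treated ones.

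Summed by class, the untreated libraries stood above the treated ones for H1, H2a, H2b and H4 and overlapped with them for H3. H2b summed to 102, 43.1 and 36.5 FPKM without α-amanitin and to 1.41, 10.9 and 13.1 with it. H4 summed to 40.5, 30.3 and 35.9 against 8.02, 11.8 and 14.8. The treated libraries thus held between 1.41 and 14.8 FPKM of either class. H1 summed to 10.6, 8.80 and 8.31 against 1.28, 2.37 and 0. H2a summed to 10.7, 11.3 and 25.6 against 1.23, 2.24 and 4.72. In H3, the sums of 6.62, 7.44 and 8.40 untreated stood beside 3.14, 8.59 and 0.753 treated, with S18 the highest of all.

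A single gene gave much of each sum, 66.6% of H2b from Hist1h2bc, 58.2% of H1 from Hist1h1b, 56.7% of H4 from Hist1h4d and 49.1% of H2a from Hist1h2ae. Leaving out Hist1h1b made the H1 sums overlap (1.44 in untreated S17, 2.37 in treated S18). Leaving out Hist1h2bc did the same for H2b (8.07 in untreated S7, 8.63 in treated S18). The H2a and H4 sums stayed apart without their leading genes. Without Hist1h3g, which was at 6.62, 5.16 and 0.872 FPKM untreated and at 0 in all 3 treated libraries, the mean H3 sum was lower without the drug than with it (log2 ratio −0.35). Hist1h3g reached 1 FPKM in 2 libraries only and was not tested. The oocyte and early embryo markers summed to 8731 to 9923 FPKM without α-amanitin and to 12202 to 16107 with it. Their part in the histone result was not tested.

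**Figure D2:**
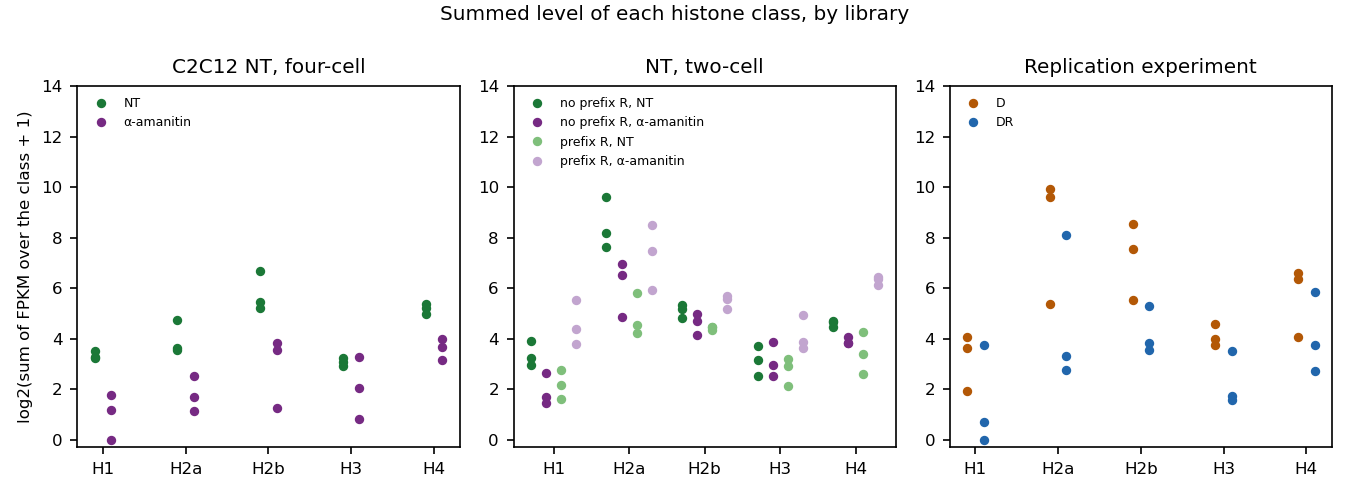
Each point is the log2(FPKM + 1) of 1 library after summing the genes of a class, in the C2C12, two-cell and replication tables (left to right), which were normalised separately. In the two-cell panel the libraries with the prefix R are drawn paler, and the untreated ones without the prefix hold H2a sums of 197 to 776 FPKM, of which NT1 is the highest of all and RAm2 (364 FPKM) lies above the other two.

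Of 19 genes for histone mRNA synthesis, 3′ end processing and decay, 16 were tested in the C2C12 experiment and 1 was called higher, a share close to the 6.2% of all genes. Npat, the histone co-activator, was at 9.62, 9.92 and 10.4 FPKM without α-amanitin and at 0.201, 0.422 and 1.34 with it (log2 difference 2.79 ± 0.42, adjusted p = 0.00786 by limma). Lsm11, a subunit of the U7 particle that guides the cut, passed the adjusted p alone (1.28 ± 0.34, 0.0425 by limma). Slbp, which binds the stem-loop, was at 38.0 to 57.5 FPKM against 31.2 to 64.3 (0.03 ± 0.33, adjusted p = 0.963 by limma). The median of the 16 was 0.61, beside 0.37 over all genes tested.

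Replacement histone genes, which have polyadenylated mRNAs, served for comparison, 9 genes of which 7 were tested. None was called, and H2afv, which encodes the variant H2A.Z.2, passed the adjusted p alone in the opposite direction, at 185 to 231 FPKM without α-amanitin and 353 to 560 with it (−1.07 ± 0.24, adjusted p = 0.0238 by limma). H3f3b, one of the genes for H3.3, was at 625 to 863 FPKM against 415 to 856. These levels exceeded those of every replication-dependent gene in the same libraries.

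In two-cell NT embryos, 39 of the 67 genes passed the filter. With all 12 libraries in 1 fit, 0 of 39 were called, against 34.2% of all 17196 genes tested in either direction. All genes gave 5851 calls higher without α-amanitin, which became 793 higher and 809 lower with libraries scaled to each other. By the adjusted p alone, 8 of 39 were higher without α-amanitin, against 71.4% of all genes, and 10 had an unadjusted p under 0.05, against 75.3%. After spike-in scaling the median gene was 1.49 higher without the drug on the log2 scale and the median histone gene 0.75. No histone gene tested had groups that did not overlap, against 16.3% of all genes for higher and 2.95% for lower.

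The 8 genes were Hist1h1b, Hist1h2bc, Hist1h4i, Hist1h2bg, Hist1h2bp, Hist1h3g, Hist1h2bk and Hist1h2ai, and in 6 of them (all but Hist1h1b and Hist1h2bp) the sign turned when libraries were scaled to each other instead of to spike-ins, which moved the median of all genes from 1.49 to 0.19. Hist1h1b differed most, by 1.94 ± 0.44 (adjusted p = 0.00097 by limma). It was at 11.02, 1.67 and 2.84 FPKM in NT1 to NT3 and at 1.35, 0.551 and 2.49 in r1, r2 and R3. Treated, it was at 0, 0 and 1.59 in Am1 to Am3 and at 0, 0.457 and 0.770 in RAm1 to RAm3. The highest treated library thus exceeded 2 of the untreated ones. Hist1h2bc differed by 1.68 ± 0.53 (adjusted p = 0.0091) and Hist1h4i by 1.28 ± 0.38 (adjusted p = 0.00617), both by limma. Hist1h1c, an H1 gene under the filter, was higher in every untreated library, with means of 1.61 and 0.0613 FPKM.

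The sets of columns diverged behind the pooled values. The same change, untreated minus treated, was compared between the sets in 1 model, and 14 of 39 histone genes had a larger change in the columns without the prefix R, by at least 4-fold and with an adjusted p under 0.05. Among all genes tested, 1.18% had such a difference. All 14 differed in that direction and none in the other, in which 34.6% of all genes were called. They were 12 of the 15 H2a genes tested, the H2B gene Hist1h2ba and the H4 gene Hist1h4d. With libraries scaled to each other, 24 of the 39 were called, all in the same direction, beside 1827 of all genes in that direction and 1621 in the other. All 39 histone genes lay above the median difference of all genes (−1.42). These sets were told apart by their column names only, and were compared after the values had been seen. The count was 8 of 37 without NT1 and 4 of 67 with no filter. Some of the genes, such as Hist1h2aa, reached 1 FPKM mainly in the libraries where they are high, and the H2a genes share sequence. Nothing is therefore read from the share of 14 of 39 or from the position of the 39.

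Hist1h2ao, the H2a gene with the highest level, was at 278, 66.7 and 99.7 FPKM in NT1 to NT3 and at 31.0, 7.91 and 42.3 in Am1 to Am3. In the columns with the prefix R it was at 6.28, 17.5 and 4.32 in r1, r2 and R3 and at 59.8, 121 and 15.02 in RAm1 to RAm3. Without the prefix, every untreated library lay above every treated one. With the prefix, the treated libraries were the higher ones, except that RAm3 lay below r2. After scaling to spike-ins, the change in Hist1h2ao was 3.21 ± 0.67 without the prefix and −0.58 ± 0.82 with it, a difference of 3.79 ± 1.19 (adjusted p = 0.0156 by limma).

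Hist1h2ap, which ends 3 bases after its stem-loop and shares nearly all of its sequence with Hist1h2ao, had almost the same values, with a difference of 3.81 ± 1.20. Hist1h2ae was lower in level, at 11.6, 4.44 and 7.32 FPKM in NT1 to NT3 against 1.85, 0.516 and 1.84 in Am1 to Am3. It was at 0.797, 0.813 and 0.971 in r1, r2 and R3 against 5.77, 11.7 and 1.51 in RAm1 to RAm3. As deposited, the groups did not overlap within either set and had opposite order. After scaling to spike-ins those with the prefix overlapped, and the change there was −0.42 ± 0.51 (adjusted p = 0.454 by limma). The difference for Hist1h2ae was 2.83 ± 0.75 (adjusted p = 0.0061 by limma), and the other called H2a genes lay between 2.26 and 3.03.

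Hist1h4d, an H4 gene with little shared sequence, showed the largest difference. It was at 10.3, 10.1 and 5.67 FPKM in NT1 to NT3 against 2.20, 1.29 and 1.91 in Am1 to Am3. It was at 2.43, 1.69 and 0.191 in r1, r2 and R3 against 28.3, 21.5 and 31.2 in RAm1 to RAm3. Hist1h4d was called higher without α-amanitin in the first set (2.36 ± 0.49, adjusted p = 0.00659) and lower in the second (−2.14 ± 0.49, adjusted p = 0.00309), and the difference was 4.50 ± 0.70 (adjusted p = 0.00016), all by limma.

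**Figure D3:**
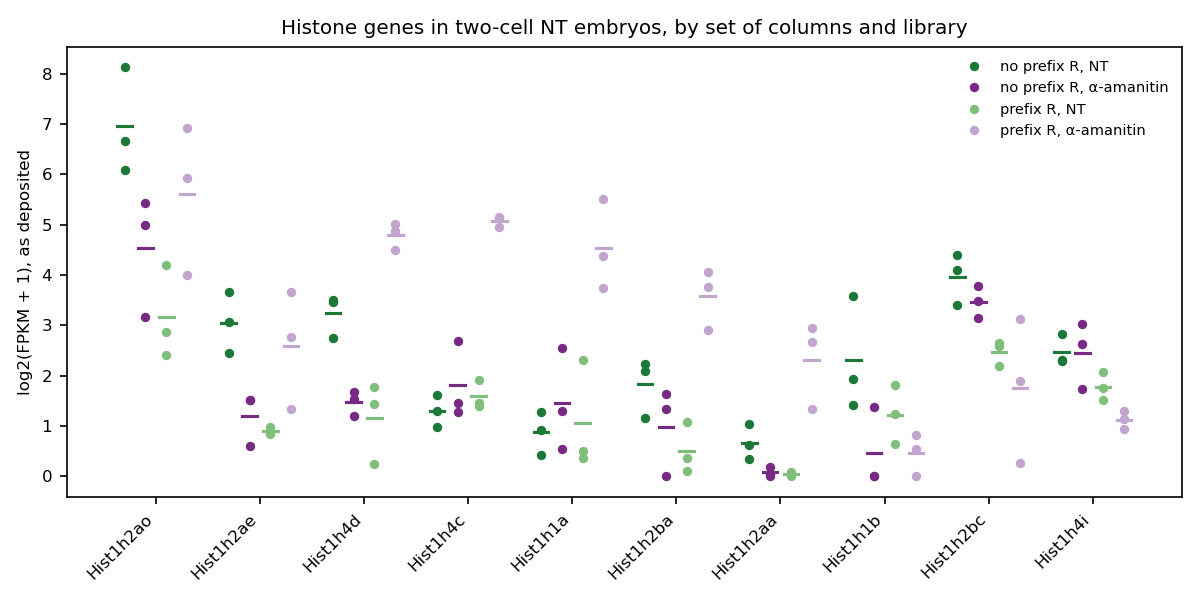
Each point is 1 two-cell library, with log2(FPKM + 1) as deposited on the vertical axis, the treated libraries in purple, those with the prefix R paler, and bars at the means of each set. For Hist1h4d, Hist1h4c, Hist1h1a, Hist1h2ba and Hist1h2aa the treated libraries with the prefix R (pale purple) lie above all others.

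In FPKM as deposited, several genes were most abundant in the treated libraries with the prefix R and low everywhere else. The H4 gene Hist1h4c was at 34.6, 29.9 and 34.0 FPKM in RAm1 to RAm3 and at no more than 5.44 in the 9 other libraries. The H1 gene Hist1h1a was at 19.9, 12.4 and 44.6 FPKM there and at no more than 4.87 elsewhere. Hist1h2ba, which encodes a testis-enriched H2B, was at 15.7, 6.45 and 12.6 FPKM against at most 3.71.

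Hist1h2aa, the testis-enriched H2A gene that neighbours it, was at 1.51, 6.76 and 5.32 FPKM against at most 1.06. The H3 gene Hist1h3f was at 2.78, 6.60 and 4.76 FPKM in RAm1 to RAm3. The difference between sets was called for Hist1h2ba (3.07 ± 0.64, adjusted p = 0.00135 by limma) and for Hist1h2aa (2.26 ± 0.50, adjusted p = 0.00198 by limma). It was 1.78 ± 0.56 for Hist1h4c (adjusted p = 0.0163), under the 4-fold limit.

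Fitted alone, the columns without the prefix R gave 13 calls among 29 histone genes tested, all higher without α-amanitin, against 9.13% of all genes higher and 0.168% lower. The calls were 11 H2a genes, Hist1h1b and Hist1h4d. The columns with the prefix gave 3 calls among 32 histone genes tested. Hist1h2bc was higher (2.12 ± 0.49, adjusted p = 0.00318 by limma), where 63.1% of all genes were, and Hist1h4d and Hist1h1a were lower, where 1.14% of all genes were. Hist1h1a fell by 2.08 ± 0.64 with an adjusted p of 0.0141 by limma. In that set the median gene was 2.56 higher without the drug, and the median histone gene −0.16. Genes such as Hist1h1b and Hist1h2ae could pass the filter without the prefix only with untreated libraries. With the prefix, Hist1h4d and Hist1h1a could pass it only with treated ones, so nothing is read from these shares or the histone median.

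**Figure D4:**
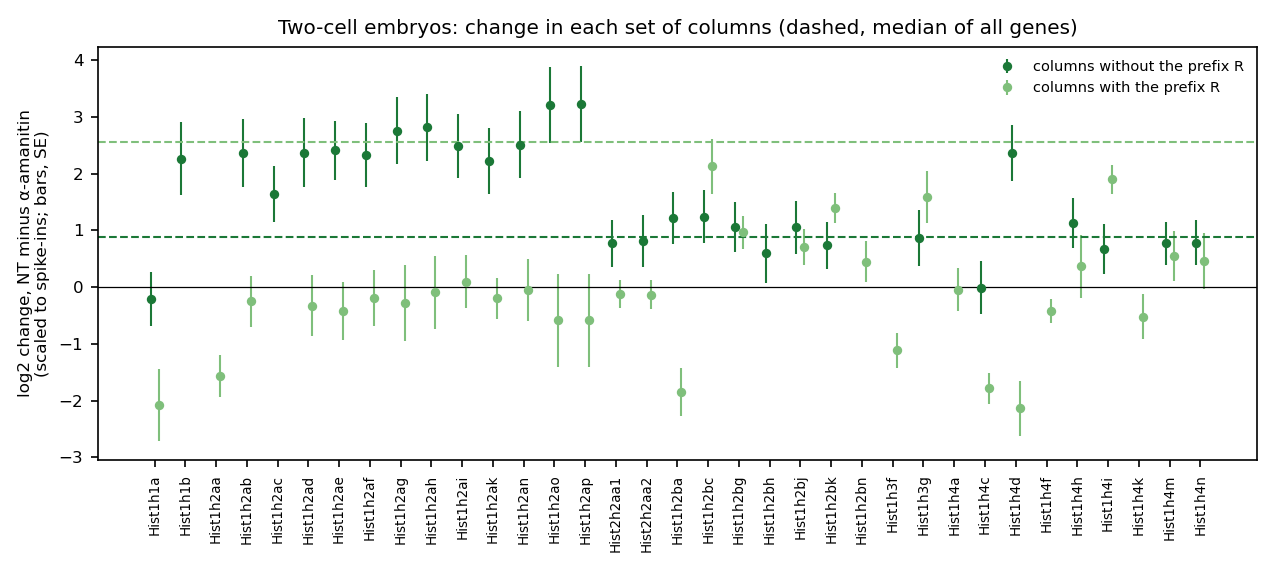
Vertical axis, log2 change without minus with α-amanitin after spike-in scaling, with its standard error, for the histone genes tested in either set of two-cell columns, and dashed lines at the medians of all genes (0.88 without and 2.56 with the prefix R). The H2a genes of cluster Hist1h with a point there sit between 1.65 and 3.22 in the columns without the prefix and near or below 0 in those with it.

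The RAm libraries also stood apart outside the histone genes. Their sum of oocyte and early embryo markers was 1553 to 3337 FPKM, against 6917 to 8102 in Am1 to Am3, 8477 to 12343 in NT1 to NT3 and 7456 to 9121 in r1, r2 and R3. The fall came from Dppa3, at 689 to 1298 FPKM against 6623 to 7576 in Am1 to Am3, and Zp3 was also lower. The other 6 markers were higher in every RAm library than in any Am library, Oosp1 at 434 to 1780 against 151 to 305 FPKM and Nlrp5 at 19.8 to 41.6 against 12.3 to 14.9 FPKM. Their sum of replacement histones was 136 to 210.3 FPKM, against 1429 or more in all other libraries. Their spike-in share of summed FPKM was 13.9% to 18.5%, overlapping the 12.6% to 16.1% of Am1 to Am3. As FPKM are shares of a library, the loss of other transcripts raises the share of those that stay, and a rise in histone mRNA cannot be told apart from it in FPKM. After scaling to spike-ins, Hist1h4d was called lower without the drug in that set, as given above.

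Class sums showed the same division in H2a, but not in H2b after scaling to spike-ins. H2a summed to 776, 197 and 293 FPKM in NT1 to NT3 against 89.9, 28.2 and 123 in Am1 to Am3. It summed to 22.1, 54.6 and 17.6 in r1, r2 and R3 against 174, 364 and 59.9 in RAm1 to RAm3. As deposited, the order of the groups was thus reversed between the sets, with no overlap in either. After scaling to spike-ins, H2a summed to 40.9, 120.1 and 38.2 in r1, r2 and R3 against 82.8, 222 and 27.4 in RAm1 to RAm3, so that these groups overlapped. Without the prefix the scaled sums of 245 to 1336 in NT1 to NT3 stayed above the 23.1 to 79.1 of Am1 to Am3. H4 summed to 24.7, 24.0 and 20.8 FPKM in NT1 to NT3 and to 84.9, 68.0 and 80.9 in RAm1 to RAm3 as deposited. The scaled H4 sums overlapped, at 42.5, 29.7 and 19.4 in NT1 to NT3 and 40.3, 41.6 and 37.1 in RAm1 to RAm3. They were 8.58 to 11.1 in Am1 to Am3 and 11.0 to 39.9 in r1, r2 and R3. The scaled H2b sums were higher without the drug in both sets, at 32.7 to 67.1 in NT1 to NT3 against 13.8 to 19.7 in Am1 to Am3. With the prefix they were 39.2 to 46.0 in r1, r2 and R3 against 16.3 to 28.6 in RAm1 to RAm3.

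Of the 16 genes tested for synthesis, processing and decay of histone mRNA, 6 were called higher without α-amanitin in two-cell embryos, where 34% of all genes were, and all 16 passed the adjusted p alone, where 71.4% were. The median was 1.62 beside 1.49 over all genes. Ncbp1, a subunit of the cap-binding complex, was at 22.8 to 54.3 FPKM against 3.21 to 22.7 (3.28 ± 0.60, adjusted p = 0.00024 by limma). Eri1, an exonuclease that trims histone mRNA ends, was at 1.72 to 11.04 FPKM against 0.0255 to 2.30 (2.60 ± 0.45, adjusted p = 0.00018 by limma). Between the sets of columns, 6 of the 16 had a called difference, each opposite in sign to the called differences of the histone genes and in the direction in which 34.6% of all genes were called.

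Of the 7 replacement histone genes tested, 5 were called higher without α-amanitin, against 34% of all genes, among them H3f3b, at 720.05 to 1032 FPKM against 25.8 to 299 (4.61 ± 0.73, adjusted p = 0.000102 by limma). The median of the 7 was 2.75, beside 1.49 over all genes. Between the sets of columns 4 of the 7 had a called difference, each with the larger change in the columns with the prefix R, where 34.6% of all genes had one, and the median difference was −3.74. H1foo, the oocyte linker histone, was at 1.70 to 6.86 FPKM against 6.70 to 35.4 (−0.34 ± 0.46, adjusted p = 0.514 by limma).

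In the replication experiment, 37 of the 67 genes passed the filter and 0 were called, against 0% of all 14570 genes tested. All 37 histone genes had a lower mean on the log2 scale in DR than in D, and how many of all genes did was not counted. The median was −2.52 beside −1.41 over all genes after spike-in scaling, and −1.37 beside 0.02 for FPKM as deposited. The groups also differed outside the histone genes, without overlap. The oocyte and early embryo markers summed to 3386 to 4036 FPKM in DR and 4570 to 5731 in D, and the share of values that came out as whole reads was 66.8% to 69.5% in DR and 54.5% to 61.6% in D. Their part in the histone values was not tested. An unadjusted p under 0.05 was reached by 5 of 37 genes, against 0.604% of all genes in either direction. That number was 8 of 37 for FPKM as deposited, against 6.16% of all genes, and 9 of 37 with libraries scaled to each other, against 5.63%. The 5 genes after spike-in scaling were Hist1h2ao, Hist1h2ap, Hist1h2ag, Hist1h4h and Hist1h2bc, and the adjusted p of each was 0.713 by limma. The count after that scaling was 0 without D1 or DR1, 2 without D4 or DR2, 3 without DR3, and 18 of 20 without D5, where 19.1% of all genes reached that p. Spike-in scaling factors ranged from 0.0937 to 5.60 among the D libraries, so the standard errors are wide. Genes such as Hist1h2ao and Hist1h4h could pass the filter only with D libraries, and Hist1h2ao and Hist1h2ap share nearly all of their sequence. Nothing is therefore read from the 37 lower means or from the shares with an unadjusted p under 0.05.

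Hist1h2ao was at 266, 14.2 and 336 FPKM in D1, D4 and D5 and at 0.197, 96.3 and 1.70 in DR1, DR2 and DR3. The groups overlapped, because DR2 stood above D4. Hist1h2bc was at 110.2, 30.7 and 258 FPKM in D1, D4 and D5 and at 1.44, 22.4 and 2.32 in DR1, DR2 and DR3. Here all D libraries lay above all DR libraries, and the log2 difference was −5.38 ± 2.27 (unadjusted p = 0.0179, adjusted p = 0.713 by limma).

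Hist1h2bg was at 23.8, 5.94 and 44.7 FPKM in D1, D4 and D5 against 2.29, 4.08 and 4.09 in DR1, DR2 and DR3. The H3 gene Hist1h3g was at 6.46, 9.76 and 5.52 FPKM against 0.542, 4.51 and 0.725. The H1 gene Hist1h1c was at 2.93, 1.85 and 1.62 FPKM against 0, 1.24 and 0. With Hist1h2bc, Hist1h4h and Hist1h2bh, these made 6 of 37 genes that lay wholly lower in DR, or 16.2%, against 3.99% of all genes, and none lay wholly higher. Among the 6, just Hist1h2bc and Hist1h2bg reached 1 FPKM in all 3 DR libraries, and Hist1h2bh (means of 1.39 in D and 0.171 FPKM in DR) reached it in none, so the other 4 could pass the filter only with their D libraries and nothing is read from this share.

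The libraries did not follow their group labels closely for other members. Hist1h4d was at 52.3, 7.41 and 49.8 FPKM in D1, D4 and D5 and at 0.252, 39.6 and 0.337 in DR1, DR2 and DR3. Hist1h1b was at 8.22, 0.632 and 6.18 FPKM in D1, D4 and D5 and at 0, 6.96 and 0 in DR1, DR2 and DR3. In both, D4 was the lowest D library and DR2 stood near D1 and D5. H2a summed to 775, 41.0 and 963 FPKM in the D libraries and to 5.71, 276 and 8.94 in the DR libraries, with the same library out of line in each group.

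**Figure D5:**
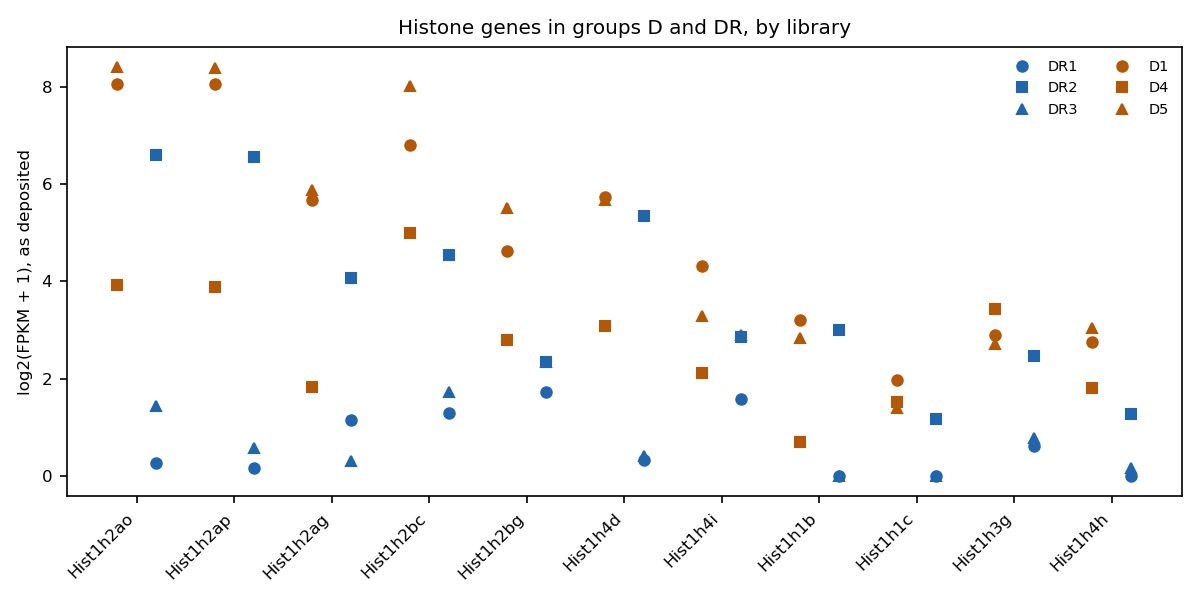
Each marker is 1 library of the replication experiment, with log2(FPKM + 1) as deposited on the vertical axis, D in orange and DR in blue, and the shape giving the library. DR2 (blue squares) lies far above DR1 and DR3 for Hist1h2ao, Hist1h2ap, Hist1h4d and Hist1h1b, and D4 (orange squares) below D1 and D5.

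None of the other histone-related lists gave a call in that experiment. Of the processing and decay genes 16 were tested, with a median of −1.35, and of the replacement histones 8, with a median of −1.38, both close to the −1.41 of all genes. Slbp was at 38.7 to 40.4 FPKM in DR and at 33.7 to 36.1 in D, a spread far smaller than that of Hist1h2ao in the same libraries. H3f3b was at 492 to 1159 FPKM in DR and at 476 to 972 in D.

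Across tables, which were normalised separately, the leading gene of a class, by its mean FPKM over all libraries of a table, was partly shared. Hist1h2bc led H2b in all 3, and Hist1h3g led H3 in all 3. The order did not hold in every group. In RAm1 to RAm3, Hist1h2bc (7.74, 2.72 and 0.193 FPKM) lay below Hist1h2ba, and Hist1h3g (2.29, 3.10 and 1.17 FPKM) below Hist1h3f, whose values are given above. In DR1 and DR3, Hist1h2bc lay below Hist1h2bg, and Hist1h4d gave little of the H4 sum. Hist1h4d led H4 in both four-cell tables and was second to Hist1h4c in the two-cell table, where the treated libraries with the prefix R gave Hist1h4c its rank. In H2a, Hist1h2ao led the two-cell and replication tables with mean levels of 62.5 and 119 FPKM. In the C2C12 table Hist1h2ao was at 0 in 4 of 6 libraries and at 1.14 and 0.963 FPKM in S17 and S7, and Hist1h2ae led.

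Genes whose annotated transcript ended within 60 bases of the stem-loop were not the least detected. Of these 22 genes, 16 passed the filter in two-cell embryos, beside 11 of the 24 with a longer transcript and 12 of the 21 without a stem-loop match. The counts were 17, 11 and 9 in the replication table, and 5, 4 and 4 in the C2C12 table. The gene with the highest mean was Hist1h2ao in the first kind, in both the two-cell and the replication table, and Hist1h2bc among those without a match in the C2C12 table (22.9 FPKM). The 21 genes without a match include some whose annotated transcript may lack the end of the mRNA. They are therefore not a group known to lack the stem-loop.

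Promoters are shown for 3 genes that differed in the comparisons above, from 250 bases before to 50 bases after the start (RefSeq, GRCm38.p6). Capitals mark TATAAA and CCAAT on either strand, the latter read as ATTGG on the other strand.
Hist1h4d, chr13:23581318-23581617, plus strand: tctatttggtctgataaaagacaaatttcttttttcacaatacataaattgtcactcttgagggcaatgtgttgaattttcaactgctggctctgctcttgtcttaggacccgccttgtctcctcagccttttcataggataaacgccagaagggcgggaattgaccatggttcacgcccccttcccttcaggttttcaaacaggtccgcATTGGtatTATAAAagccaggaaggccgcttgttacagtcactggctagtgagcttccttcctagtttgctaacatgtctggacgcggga
Hist1h2ap, chr13:21833426-21833725, minus strand: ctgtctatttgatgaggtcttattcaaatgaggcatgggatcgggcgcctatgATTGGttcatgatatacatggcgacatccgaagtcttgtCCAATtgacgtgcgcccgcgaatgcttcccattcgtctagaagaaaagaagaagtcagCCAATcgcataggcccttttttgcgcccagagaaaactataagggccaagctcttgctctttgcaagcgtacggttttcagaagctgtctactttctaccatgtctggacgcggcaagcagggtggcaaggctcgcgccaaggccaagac
Hist1h1b, chr13:21780576-21780875, minus strand: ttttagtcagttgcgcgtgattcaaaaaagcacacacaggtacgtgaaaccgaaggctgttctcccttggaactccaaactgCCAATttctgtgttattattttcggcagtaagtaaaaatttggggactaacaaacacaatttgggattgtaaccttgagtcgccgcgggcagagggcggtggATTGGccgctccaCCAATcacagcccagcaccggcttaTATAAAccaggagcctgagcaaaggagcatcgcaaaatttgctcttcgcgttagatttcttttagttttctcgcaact
Among the 62 promoters matched to 61 of the genes, TATAAA was present on either strand in 56.5%, against 13.6% of all 32851 promoters. CCAAT was present in 85.5%, against 37.4%, and in every H1, H2a, H2b and H3 promoter but in 25% of the 12 H4 promoters. The octamer ATTTGCAT, known from H2B promoters, stood in 22.6% against 1.74%, in 7 of 17 H2a and 7 of 17 H2b promoters and in no other class. In Hist1h4d, TATAAA lies 32 bases before the start and ATTGG 40 bases before it. Hist1h1b holds TATAAA 28 bases before the start, whereas Hist1h2ap holds CCAAT in 3 places and no TATAAA. These matches are a description of the letters only.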

How the data were processed

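RNA-seq of mouse NT embryos was analysed from the tables of 3 experiments. The authors filtered reads with Trimmomatic, used Trim Galore and cutadapt to trim adaptors and homopolymers, mapped them with STAR to mm10 and deposited FPKM per gene, without spike-in scaling. The submitters' processing notes also name featureCounts, whose settings are not given in the sources used here. How reads that match several genes were counted is not given in the sources used here. Values came out as whole reads in all C2C12 libraries and only in part elsewhere.

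FPKM of the two-cell and replication tables were scaled to the 47 and 19 spike-ins found in every library. Group differences in log2(FPKM + 1) were then fitted by limma (version 3.58.1, R version 4.3.3), with a trend, for all genes at 1 FPKM or above in 3 or more libraries, with Benjamini-Hochberg adjustment, and fits were tested on simulated data. A log2 change understates the change of weakly expressed genes. The table of the replication experiment holds 4 further library columns that were not used. Histone members, lists and tests were chosen with earlier results of these data known. Genes named were those called, the leading members of each class and others that passed the filter. The counts of calls were repeated with other pseudocounts, filters and scalings and without single libraries. Standard errors are those of limma, and limits set by a count of 0 cover counting error only.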

Additional observations from a re-analysis of the deposited data

Results flagged for a closer look

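In 14 histone genes the change without against with α-amanitin differed between the sets of two-cell columns, by an interaction term in limma and by at least 4-fold. The log2 differences, columns without minus with the prefix R, were 4.50 for Hist1h4d, 3.81 for Hist1h2ap, 3.79 for Hist1h2ao, 3.07 for Hist1h2ba, 3.03 for Hist1h2ag, 2.91 for Hist1h2ah and 2.83 for Hist1h2ae. They were 2.70 for Hist1h2ad, 2.61 for Hist1h2ab, 2.56 for Hist1h2an, 2.52 for Hist1h2af, 2.43 for Hist1h2ak, 2.39 for Hist1h2ai and 2.26 for Hist1h2aa. The H2a genes share sequence and are not independent. The treated libraries with the prefix R also had lower summed FPKM of replacement histones and lower Dppa3, while 6 of the 8 oocyte and early embryo markers were higher there than in the other treated libraries, and the part of this in the differences was not tested.

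A single two-cell library lay far from the 5 others of its group in 11 of 60 groups checked, where chance gives about 1 in 20. NT1 was the highest untreated library for Hist1h2ao (278 FPKM), Hist1h2ap (277), Hist1h2ab (17.2), Hist1h1b (11.02) and the H2a sum (776). RAm2 was the highest treated library for Hist1h2an (12.6 FPKM), Hist1h2ad (12.4), Hist1h2ai (9.06), Hist1h2af (7.44) and the H3 sum (30.0). The library r1 was the highest untreated one for Hist1h1a (3.93 FPKM). These groups pool both sets of columns, and several of the genes share reads.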

How the results depend on the processing

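The count of 3 calls in C2C12 embryos became 1 with no filter or a stricter one, 2 with median-of-ratios scaling or by limma-voom on recovered reads, 4 at a pseudocount of 0.1, 5 at a pseudocount of 0.5 or without the fold limit, and 0 to 4 without single libraries (0 without S15, S17 or S7). The 0 calls in two-cell embryos became 1 lower without the drug for FPKM as deposited, 2 lower with median-of-ratios scaling, 1 higher at a pseudocount of 0.5, 3 higher at 0.1, 1 higher and 2 lower (3 in all) in the columns with the prefix R alone, 13 higher in those without it, 8 higher without the fold limit, and 0 to 1 without single libraries. The 14 differences between column sets became 24 with median-of-ratios scaling, 4 with no filter, and 8 to 16 without single libraries (8 without NT1). With a replicate block on set and column number, 0 were called in two-cell embryos; equal numbers correlated by −0.00437 to 0.0789 and do not pair libraries, and in the other experiments the groups share fewer than 2 column numbers.

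With median-of-ratios scaling, two-cell changes turned to −0.34 (Hist1h2ai), −0.047 (Hist1h2bc), −0.28 (Hist1h2bg), −0.78 (Hist1h2bk), −0.43 (Hist1h3g) and −0.26 (Hist1h4i), and to −0.022 for Hist1h2bk as deposited. Without the leading gene, log2 ratios of C2C12 class sums became 1.37 (H1), 1.69 (H2b) and −0.35 (H3), and 3.09 for two-cell H1. Scaled to spike-ins, two-cell ratios turned to 0.51 (H1), 1.12 (H2b), 0.60 (H3) and 0.10 (H4), and those of DR over D moved to −5.13 (H1), −6.42 (H2a), −5.47 (H2b), −4.87 (H3) and −4.43 (H4). D1, with a spike-in factor of 0.0937, had the highest scaled sum of the D libraries in every class. For H2a it was 8271, against 123 in D4 and 172 in D5. The causes of these shifts were not tested. A count model was not run on two-cell reads, which are not whole, nor early against late embryos, whose columns are not told apart.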
